A study of Mus with 4 samples.

Results

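Prdm1 and Mid1 are 2 of the 19505 genes with a named probe set on 4 Affymetrix arrays of mouse tumor RNA. They were chosen by their measured values, because each differed far and in 1 direction between hairpins in both diets, Prdm1 downward and Mid1 upward. Their differences between hairpins are therefore given as descriptions, with no test. Each gene is read by 1 probe set.

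The tumors grew under the skin of the flank in male BALB/cCrSlc mice from injected Renca cells. Renca is a renal adenocarcinoma line of the mouse, here carrying 1 of 2 short hairpin RNAs, shNrf3 against the transcription factor Nrf3 or the control hairpin shCtrl. The 4 groups were shNrf3 tumors in mice on the high-fat diet HFD-60 (shNrf3-HFD), shCtrl tumors on that diet (shCtrl-HFD), shNrf3 tumors in mice on the normal chow CE-2 (shNrf3-NC) and shCtrl tumors on chow (shCtrl-NC). Mice bought at 4 to 6 weeks of age ate their diet for 17 weeks, and tumors were taken 2 weeks after injection. There is 1 array for each group, made from 100 ng of RNA, and how many tumors or cell clones stand behind it is not stated. Differences below are between single arrays, without replicates, and precision is limited by that number. Whole tumor tissue was extracted, so a smaller share of cells of a type and less RNA per cell cannot be told apart.

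Prdm1 encodes Blimp-1, a zinc finger repressor with a PR/SET domain that recruits histone-modifying enzymes to its target genes. It is best known for driving B cells to become plasma cells, and it also acts in effector T cells, in the epidermis and in the sebaceous gland. Mid1 encodes midline-1, a RING-type ubiquitin ligase of the TRIM family that sits on microtubules. It binds alpha4, the product of Igbp1, and through it marks the catalytic subunit of protein phosphatase PP2A for degradation. Mutations of the human gene cause X-linked Opitz syndrome, a disorder of midline structures. In the laboratory mouse the gene spans the boundary of the pseudoautosomal region, and the exons that the probe set reads were not analysed here.

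Values are log2 RMA levels, on which a difference of 1 is 2-fold, and every difference between constructs is shNrf3 minus shCtrl. On the 4 arrays the medians over all rows lay between 5.73 and 5.81. The 5222 negative control rows had medians from 5.35 to 5.39 and 95th percentiles from 8.97 to 9.35. Array names below are the labels. The targeted gene Nfe2l3, which encodes the transcription factor Nrf3, read 6.05 on shNrf3-HFD and 5.77 on shCtrl-HFD, a difference of 0.28 that goes against the label. It read 5.56 on shNrf3-NC and 6.22 on shCtrl-NC, a difference of -0.66. Among the 1000 genes nearest to it in mean level, 341 had a higher difference in HFD and 184 a lower one in NC. On each array 34.0% to 44.8% of the control rows read as high as Nfe2l3 or higher. Nfe2l3 was thus near background and lower on the array labelled shNrf3 in NC alone, and every direction below rests on the labels. Of the 9 measured genes of cap'n'collar factors and small Mafs, the family of Nrf3 and its dimer partners, 0 were 2-fold higher or lower in HFD (list medians 0.03 in HFD and 0.07 in NC, the first turning to -0.04 after cyclic loess and -0.02 after centring). In NC 1 of them was 2-fold higher, Nfe2l2, which encodes NRF2 and read 1.23 above shCtrl.

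Prdm1 read low on both arrays labelled shNrf3 and high on both labelled shCtrl. Its level was 7.51 on shNrf3-HFD and 10.80 on shCtrl-HFD, and 7.49 on shNrf3-NC and 10.31 on shCtrl-NC. The difference was -3.29 in HFD, which is 9.81-fold lower, and -2.83 in NC, which is 7.09-fold lower. The lower shCtrl reading lay 2.80 above the higher shNrf3 reading, a gap that the choice of the gene favoured. Across diets the 2 shNrf3 readings differed by 0.02 and the 2 shCtrl readings by 0.49. On the shNrf3 arrays 15.6% (HFD) and 13.7% (NC) of the negative control rows read as high as Prdm1 or higher, against 1.93% and 2.91% on the shCtrl arrays. The low readings thus lay within the upper range of the control rows, and what part of them is background was not tested.

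Mid1 had the opposite order of constructs. It read 11.04 on shNrf3-HFD and 7.30 on shCtrl-HFD, and 9.87 on shNrf3-NC and 7.19 on shCtrl-NC. The difference was 3.74 in HFD, which is 13.4-fold higher, and 2.68 in NC, which is 6.41-fold higher. The lower shNrf3 reading lay 2.57 above the higher shCtrl reading, again a gap that the choice of the gene favoured. Here it was the shCtrl arrays that lay within the range of the control rows, of which 16.0% (HFD) and 20.1% (NC) read as high or higher, against 2.22% and 3.12% on the shNrf3 arrays.

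**Figure D1:**
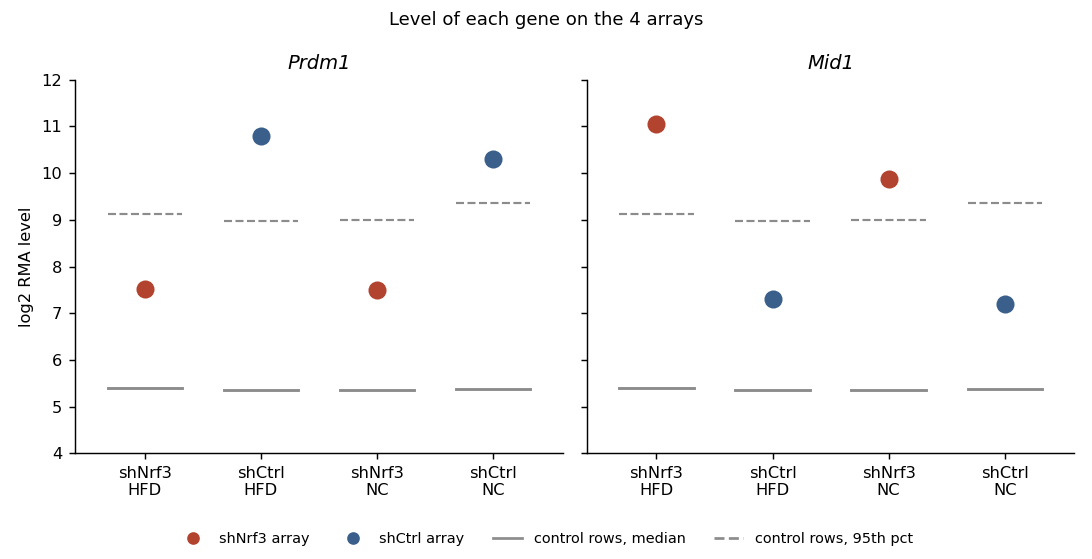
Log2 RMA level of Prdm1 and Mid1 (y axis) on each of the 4 arrays (x axis), 1 point an array, with the median (solid bar) and 95th percentile (dashed bar) of that array's negative control rows. Prdm1 lies near 7.5 on both shNrf3 arrays and above 10 on both shCtrl arrays, and Mid1 lies near 7.2 to 7.3 on both shCtrl arrays and at 9.87 and 11.04 on the shNrf3 arrays.

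The diet contrasts of both genes were smaller than their contrasts of construct. Prdm1 differed between HFD and NC by 0.02 with shNrf3 and by 0.49 with shCtrl, near the middle of the 1000 genes nearest in level, of which 568 and 599 had a lower diet difference. Mid1 differed by 0.11 with shCtrl (389 of 1000 lower), a value that turned to -0.19 after cyclic loess and -0.09 after quantile normalization. The 0.02 of Prdm1 turned to -0.01 after centring. With shNrf3 Mid1 read 1.17 higher in HFD than in NC, and 6 of its 1000 nearest genes had a higher diet difference. The construct difference of Mid1 was accordingly 1.06 larger in HFD than in NC, and 32 of the 1000 genes had a higher value of that difference of differences. For Prdm1 it was -0.47, with 450 lower and 550 higher. These contrasts use the same 4 arrays that the genes were chosen on.

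Genes of similar level give a scale for these differences. Their spread can hold differences between tumors as well as scatter between arrays, and 1 array a group cannot separate them. The 1000 genes nearest to Prdm1 had mean levels from 8.68 to 9.38, and their construct differences had an SD of 0.60 in HFD around a median of -0.19, and an SD of 0.75 in NC around a median of 0.18. None of the 1000 read as low as Prdm1 in either diet. The lowest of them were Apod, which encodes a lipid-binding apolipoprotein, at -2.76 in HFD and the decoy receptor gene Tnfrsf22 at -2.27 in NC, both named for this place after their values were seen. In NC Prdm1 was the lowest of all 10021 genes that passed a filter on mean level (5.73 or more, the median over all rows), and in HFD it ranked 8 from the bottom. By the smaller of its 2 differences it ranked 1 among genes lower in both diets, followed by Dsc2.

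The 1000 genes nearest to Mid1, with mean levels from 8.51 to 9.20, had an SD of 0.58 around -0.20 in HFD and of 0.75 around 0.16 in NC. None exceeded Mid1 in HFD, where the next highest was Acod1 at 1.92. In NC 5 of the 1000 exceeded it, up to 4.20 for the granzyme gene Gzmb. Among all 10021 genes Mid1 ranked 2 from the top in HFD and 54 from the top in NC, and by the smaller of both differences it ranked 2, between Cxcl9 and C6. Prdm1 and Mid1 lie in each other's set of 1000. Prdm1 was the lowest of the Mid1 set in both diets. Mid1 was the highest of the Prdm1 set in HFD, while in NC the highest there was Cxcl13 at 3.87. The mean levels of Prdm1 and Mid1 were 9.03 and 8.85.

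**Figure D2:**
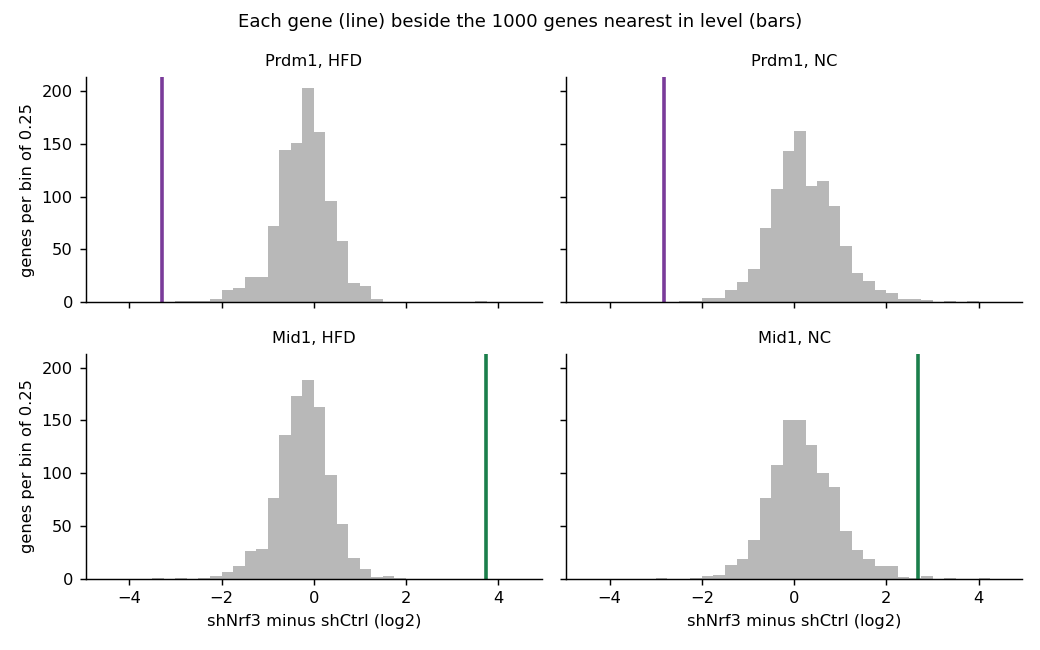
Histograms of shNrf3 minus shCtrl (log2, x axis) for the 1000 genes nearest in mean level to Prdm1 (top) and Mid1 (bottom), in HFD (left) and NC (right), with genes per bin on the y axis. The vertical line is the gene itself, at -3.29 and -2.83 for Prdm1 and at 3.74 and 2.68 for Mid1. No bar lies beyond the line except for 5 genes above Mid1 in NC.

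A 2-fold difference in 1 comparison was common, and the same in both diets was rare. Of the 10021 genes, 2.55% were at least 2-fold higher in HFD and 7.13% lower, while in NC 13.3% were higher and 4.52% lower. In both diets 84 genes (0.838%) were higher and 83 (0.828%) lower. Prdm1 is 1 of the 83 and Mid1 1 of the 84, which is how they were chosen, and nothing is read from it. Among the 1000 genes nearest to Prdm1 in level 16 were 2-fold lower in both diets, and among the 1000 nearest to Mid1 6 were higher. The split of single comparisons moved with the scaling. In HFD 256 genes were higher and 714 lower as deposited, against 333 and 498 after cyclic loess and 343 and 466 after quantile normalization. In NC 1334 were higher and 453 lower, against 1086 and 620 after loess and 1009 and 753 after quantile normalization. The median over all filtered genes was -0.14 in HFD and 0.14 in NC as deposited, and -0.0048 and 0.0076 after loess. Prdm1 and Mid1 kept the direction of both construct differences under these scalings.

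**Figure D3:**
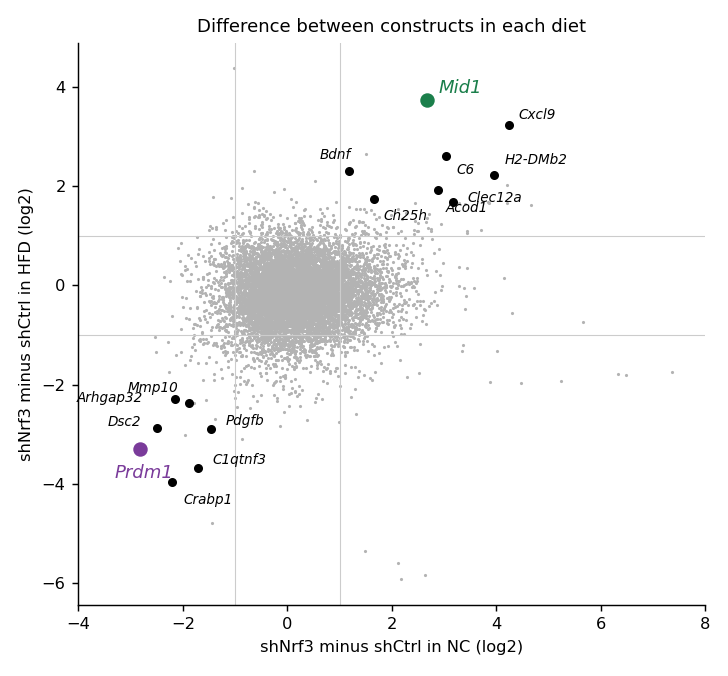
Construct difference in HFD (y axis, log2) against that in NC (x axis, log2) for 10021 genes past the filter on level (grey points), with lines at -1 and 1. Prdm1 lies below -1 on both axes and Mid1 above 1 on both, at -2.83 and 2.68 on the x axis, where Mid1 ranked 54 from the top. The black points are the genes nearest to either of them in pattern or in mirrored pattern.

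The genes whose 4 readings ran most like those of Prdm1 were Dsc2, Crabp1, Arhgap32, C1qtnf3 and Pdgfb. Likeness is the Euclidean distance between 4-array profiles, each gene taken minus its own mean, and it ran from 0.42 for Dsc2 to 1.23 for Pdgfb, where the median over the other 10020 genes was 3.12. Dsc2, which encodes a desmosomal cadherin, read 5.26 on shNrf3-HFD and 8.13 on shCtrl-HFD, and 4.99 on shNrf3-NC and 7.49 on shCtrl-NC. Its shNrf3 readings lie under the control medians, so its differences are bounds of -2.74 or lower in HFD and -2.14 or lower in NC. Crabp1, a retinoic acid binding protein gene, differed by -3.97 in HFD and -2.20 in NC. Arhgap32, which encodes a GTPase-activating protein, had nearly the same difference in both diets (-2.29 in HFD and -2.16 in NC). The secreted protein gene C1qtnf3 differed by -2.91 or lower in HFD and by -1.71 in NC. Pdgfb, a growth factor gene for pericytes and fibroblasts, differed by -2.47 or lower in HFD and by -1.46 in NC.

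Nearest to Mid1 in pattern was C6, a complement gene of the membrane attack complex, at a distance of 1.10 (median over all genes 3.37). C6 read 8.27 on shNrf3-HFD and 5.66 on shCtrl-HFD, and 8.55 on shNrf3-NC and 5.51 on shCtrl-NC. The next were Acod1, which makes itaconate in activated macrophages (1.92 in HFD and 2.89 in NC), the neurotrophin gene Bdnf (2.30 and 1.18), the myeloid lectin gene Clec12a (1.69 and 3.16) and Ch25h, which makes 25-hydroxycholesterol (1.75 and 1.67). Of these 5 genes Bdnf and Ch25h had a larger difference in HFD than in NC, as Mid1 had, and C6, Acod1 and Clec12a had a smaller one. All 5 stood farther from Mid1 than the closest 4 named for Prdm1 stood from Prdm1.

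Prdm1 and Mid1 were chosen for opposite differences on these same arrays, so the distance of each from the mirror image of the other restates that choice. C6 lay nearest to the mirrored profile of Prdm1, at 0.54, and Mid1 came next at 0.96. Cxcl9, a T cell chemokine gene, differed by 3.24 in HFD and 4.25 in NC, and with Acod1 and H2-DMb2 (2.22 and 3.96) it completed the 5. H2-DMb2, a class II peptide loading gene, has a near-identical copy, so its probe set is uncertain. The mirrored profile of Mid1 lay closest to Crabp1 (0.55), C1qtnf3 (0.80), Prdm1 (0.96), Pdgfb (1.07) and the stromelysin gene Mmp10 (1.12), which differed by -2.37 in HFD and -1.88 in NC. With 4 arrays such distances describe these arrays alone.

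Measured genes that lie near Prdm1 and Mid1 on the chromosome did not share their differences, though for Mid1 these lie on 1 side only. All 10 protein-coding genes annotated nearest to Prdm1 on chromosome 10, 5 on each side, were measured. They differed by -0.44 to 0.59 in HFD and by -0.81 to 0.79 in NC, and none was 2-fold higher or lower in either diet. Directly beside Prdm1 lie the autophagy gene Atg5 (0.51 in HFD and -0.80 in NC) and the prolyl peptidase gene Prep (-0.42 and 0.18). The others were Cd24a, Qrsl1, Rtn4ip1 and Crybg1 on the side of Atg5, and Popdc3, Bves, Lin28b and Hace1 on the side of Prep. Popdc3, Bves and Lin28b read under the control median on all 4 arrays.

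Mid1 lies near the end of the X chromosome, where the annotation holds 6 such neighbours, of which 4 were measured. Msl3, a chromatin gene of the MSL histone acetyltransferase complex, differed by -0.41 in HFD and -0.60 in NC, and the GTPase-activating protein gene Arhgap6 by -0.44 and -0.18. Hccs, which attaches heme to cytochrome c, differed by -0.54 and 0.03. The enamel gene Amelx was under the control median on all 4 arrays, and its NC difference of -1.23 is between such readings. All 4 measured genes lie on 1 side of Mid1. Gm15246, directly beside Mid1 on that side, and Asmt, the 1 gene annotated on the other side, have no named probe set here.

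**Figure D4:**
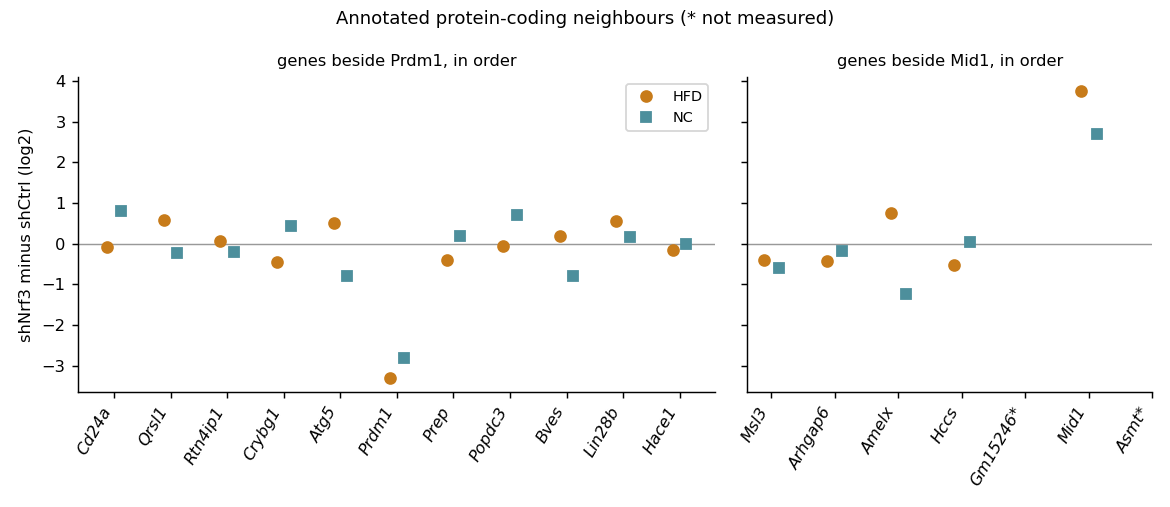
Construct difference (log2, y axis) in HFD (circles) and NC (squares) for Prdm1 and Mid1 and their annotated protein-coding neighbours in chromosome order (x axis, asterisk for a gene not measured). Prdm1 stands apart from the genes on either side, and Mid1 from those measured, which all lie on 1 side of it. These neighbours lie between -0.81 and 0.79, except for Amelx at -1.23 in NC.

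List counts below run over all measured members, also those under the filter on level, while the shares given above run over genes past it. With no filter, of all 19505 genes 1009 were 2-fold higher and 1021 lower in HFD. In NC 1670 of them were higher and 1303 lower. Of the 12 other PRDM genes measured, 1 was 2-fold higher and 2 were lower in HFD, and 0 were higher and 1 lower in NC, with medians of -0.23 in HFD and -0.15 in NC. Over the 4 of them past the filter the medians were -0.63 in HFD and -0.11 in NC, where all filtered genes had -0.14 and 0.14. Mecom, a regulator of blood stem cells, read 6.38 on shNrf3-HFD and 7.74 on shCtrl-HFD (difference -1.35), and 7.37 on shNrf3-NC and 7.80 on shCtrl-NC (-0.43). The tumor suppressor gene Prdm2 differed by -1.18 in HFD and -0.02 in NC. Prdm4 differed by -0.09 and 0.18, and Prdm11 by 0.36 and -0.20. Prdm6, Prdm8, Prdm12, Prdm13, Prdm14 and Prdm16 read under the control median on all 4 arrays, and the 2-fold value of Prdm8 in HFD (1.09) is among them. Prdm9, a gene of meiotic recombination, and Prdm15 read under the control median on 3 of the 4 arrays, so the -1.56 of Prdm9 in NC is a bound of -0.51 or lower.

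Genes known from lymphocytes as repressed by Blimp-1 were read next, from a list of 14 of which 13 were measured. In HFD 4 were 2-fold or more higher and 0 lower, and in NC 2 were higher and 0 lower, with medians of 0.22 and 0.38. The HFD median was -0.23 over the members past the filter alone. Ciita, the master regulator of MHC class II genes, was the 1 member 2-fold higher in both diets. It read 6.95 on shNrf3-HFD and 5.68 on shCtrl-HFD (difference 1.27), and 7.13 on shNrf3-NC and 5.68 on shCtrl-NC (1.44). Its shCtrl readings lie just above the control medians. The other 3 higher members in HFD were Ifng (1.75, of which 0.93 lies above the control median), Pax5 and Spib, of which Pax5 and Spib read under the control median on all 4 arrays. Klf2, a quiescence factor gene, was higher by 1.02 or more in NC and differed by -0.35 in HFD. Myc differed by -0.27 in HFD and -0.50 in NC, Bcl6 by -0.46 and 0.51, and Id3 by 0.22 and 0.63. Il2 and Tbx21 lay under the control median on all arrays, and Fos, S1pr1 and Ccr7 were within 2-fold in both diets.

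Of the 9 corepressor genes whose products Blimp-1 recruits, 0 were 2-fold higher or lower in HFD, and 1 was higher and 0 lower in NC. That gene was the histone deacetylase gene Hdac1 (0.56 in HFD and 1.06 in NC). Hdac2 differed by -0.97 and 0.58, the G9a gene Ehmt2 by -0.37 and 0.68, and Tle2 by 0.08 or more in HFD, with both NC readings under the control median. The list had medians of -0.07 in HFD, which turned to 0.08 after cyclic loess, and 0.13 in NC. Regulators that switch Prdm1 on or off had medians of -0.46 and 0.22 over 9 measured genes. Of these 1 was 2-fold higher in HFD (Pax5, under the control median) and 1 in NC, the melanocyte lineage factor gene Mitf, at 1.43 (-0.24 in HFD). Jun, an AP-1 subunit gene, differed by -0.64 and 0.97. Bach2, which represses Prdm1 in B cells, differed by -0.67 and 0.07. Irf4, which activates it there, lay under the control median on all 4 arrays.

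Of the 5 other measured members of the Mid1 subfamily of TRIM ligases 0 were higher and 1 lower in HFD and 0 were higher or lower in NC, with medians of -0.60 and 0.02. None of them passed the filter on level, so little can be read from these counts, and Trim9, Trim36, Trim46 and Trim67 read under the control median on all 4 arrays. Mid2, the closest paralog, read 4.42 on shNrf3-HFD and 6.40 on shCtrl-HFD, a difference of -1.01 or lower, against the direction of Mid1. On NC both Mid2 readings (3.99 on shNrf3-NC and 4.88 on shCtrl-NC) lay under the control median.

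Of the MID1 partner genes 6 of 9 were measured, with 0 higher and 0 lower by 2-fold in HFD, 1 higher and 1 lower in NC, and medians of -0.57 and -0.11 (the NC median was 0.01 over members past the filter). Igbp1, which encodes alpha4, the link between MID1 and PP2A, read 11.17 on shNrf3-HFD and 11.93 on shCtrl-HFD (difference -0.77), and 11.13 on shNrf3-NC and 11.82 on shCtrl-NC (-0.68). It was thus lower on both shNrf3 arrays, by less than 2-fold. Mid1ip1, whose product binds MID1 on microtubules, differed by -0.91 in HFD and 0.96 in NC. The PP2A catalytic subunit gene Ppp2cb differed by 0.27 and 0.01, and Rptor, a subunit gene of the mTORC1 kinase complex, by -0.41 and -0.22. The kinase gene Mtor read 7.97 on shCtrl-NC and 9.15 to 9.29 on the other 3 arrays. Stk36, a kinase gene of the Hedgehog pathway, read under the control median on all arrays. The genes Ppp2ca, Rps6kb1 and Rack1 were not measured here.

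PP2A scaffold and regulatory subunit genes had 0 higher and 1 lower of 13 in HFD and 1 higher and 0 lower in NC, with medians of -0.23 and 0.20. Those 2 genes were Ppp2r5e (-1.03 in HFD and 0.20 in NC) and Ppp2r5d (0.59 and 1.95). Hedgehog pathway genes had 1 higher and 0 lower of 14 in HFD and 0 higher and 3 lower in NC, with medians of -0.36 and -0.34. The pathway readout gene Ptch1 differed by -0.11 and -0.36, and the readout gene Gli1 read under the control median on all 4 arrays, its HFD difference of 1.83 included. The co-receptor genes Boc (-0.71 and -1.32) and Cdon (-0.80 and -0.90) were lower on both shNrf3 arrays. Of the 3 genes counted lower in NC, Boc alone read above the control median. The others, Gli2 (-1.12) and Stk36 (-1.08), read under it on all 4 arrays.

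The tissue was checked with markers of the cells it could hold. The epithelial keratin gene Krt18 read 15.22 on shNrf3-HFD and 15.90 on shCtrl-HFD, and 14.46 on shNrf3-NC and 15.17 on shCtrl-NC. The renal tubule genes Cdh16, Pax8 and Pax2 and the claudin gene Cldn7 lay under the control median on all 4 arrays. Of 11 epithelial and renal markers 0 were 2-fold higher and 1 lower in HFD and 0 higher and 2 lower in NC, with medians of -0.49 and -0.55. Their mean level was 9.65 on shNrf3-HFD and 10.06 on shCtrl-HFD, and 9.32 on shNrf3-NC and 9.77 on shCtrl-NC. Epcam, an epithelial adhesion gene, differed by -0.49 and -1.56. Of 12 markers of plasma cells, in which Prdm1 is best known, 7 were under the control median on all 4 arrays, among them Mzb1, Tnfrsf17 and Irf4. In HFD 2 were higher and 0 lower and in NC 3 were higher and 1 lower, with medians of 0.28 and 0.09 (-0.24 in HFD over those past the filter). Of the 2 in HFD, Mzb1 is among those under the control median, and Jchain is bounded under 2-fold. Of the 3 in NC, Cd79a read under the control median on all 4 arrays. The others in NC were Jchain and Xbp1, which differed by -0.83 in HFD and 1.27 in NC. Their mean level was 6.18 on shNrf3-HFD and 5.94 on shCtrl-HFD, and 6.47 on shNrf3-NC and 6.26 on shCtrl-NC. The antibody joining chain gene Jchain was higher by 0.52 or more in HFD and by 1.37 in NC, against the direction of Prdm1. Sdc1, a plasma cell marker that epithelium also expresses, differed by -0.30 and -1.24.

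Besides the epithelial and renal markers (-0.49 in HFD and -0.55 in NC), lists of 3 other cell types had negative medians in both diets, the direction of Prdm1. Fibroblast and pericyte markers had 8 of 12 lower and 0 higher in HFD and 4 lower and 0 higher in NC, with medians of -1.47 and -0.67. Their mean level was 10.06 on shNrf3-HFD and 11.29 on shCtrl-HFD, and 11.16 on shNrf3-NC and 11.95 on shCtrl-NC. Lum, a matrix proteoglycan gene, differed by -3.03 and -1.96 and was the lowest of this list in HFD. The pericyte receptor gene Pdgfrb (-1.92 and -1.40) and the matrix gene Postn (-1.41 and -2.13) were also 2-fold lower in both diets. Endothelial markers had 3 of 12 lower and 0 higher in HFD and 6 lower and 1 higher in NC, with medians of -0.34 and -0.95 and mean levels of 6.91 on shNrf3-HFD, 7.48 on shCtrl-HFD, 6.98 on shNrf3-NC and 7.71 on shCtrl-NC. Cdh5, Kdr and Flt1 were 2-fold lower in both diets, and the lowest value was the -1.97 of Cdh5 in NC. The angiogenic co-receptor gene Eng was 1.29 higher in NC.

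Keratinocyte and sebaceous gland markers had 6 of 15 lower and 1 higher in HFD and 4 lower and 1 higher in NC, with medians of -0.63 and -0.66. Of those counted in HFD, Krt79 is bounded at -0.38 or lower, Pparg at -0.53 or lower and the 1 higher, Trp63, at 0.45 or more. Their mean level was 4.68 on shNrf3-HFD and 5.61 on shCtrl-HFD, and 4.55 on shNrf3-NC and 5.12 on shCtrl-NC, and 6 of them were under the control median on all arrays. Krt10, a keratin gene of differentiated epidermis, differed by -4.12 or lower in HFD and -1.10 or lower in NC. The keratin gene Krt5 (-1.07 or lower and -0.41 or lower) and the desmosomal gene Dsc3 (-1.07 or lower and -0.51 or lower) were, by their readings, the other members 2-fold lower in both diets. Krt10 was the 1 marker in the 10 cell type lists that read as low as Prdm1 in either diet. The part of these 3 cell types, or of epithelial cells, in the Prdm1 difference was not tested.

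Lists of macrophages and cytotoxic lymphocytes had positive medians in both diets, the direction of Mid1. Macrophage and monocyte markers had 3 of 13 higher and 0 lower in HFD and 10 higher and 0 lower in NC, with medians of 0.43 and 1.27. Their mean level was 11.45 on shNrf3-HFD and 10.88 on shCtrl-HFD, and 11.68 on shNrf3-NC and 10.40 on shCtrl-NC. The arginase gene Arg1 (2.65 and 1.51), the chemokine receptor gene Ccr2 (1.53 and 1.47) and the lysozyme gene Lyz2 (1.03 and 1.49) were 2-fold higher in both diets. In HFD C1qb (-0.65), Cd14 (-0.31) and Mertk (-0.17) went the other way, while in NC all measured members were higher. Cytotoxic lymphocyte markers had 4 of 10 higher and 0 lower in HFD and 2 higher and 0 lower in NC, with medians of 0.79 and 0.59. Their mean level was 6.36 on shNrf3-HFD and 5.69 on shCtrl-HFD, and 6.65 on shNrf3-NC and 5.70 on shCtrl-NC. Gzmb differed by 1.67 and 4.20 and Klrd1 by 0.45 or more and 1.71 or more. Nkg7 (-0.40 or lower) and Klrb1c (-0.22 or lower) went the other way in HFD. T cell markers had medians of -0.27 in HFD and 0.37 in NC over 10 genes. In HFD 1 was higher and 1 lower, and in NC 4 were higher and 0 lower. The 1 lower in HFD was Cd4 (-1.30, and -0.34 in NC). The coreceptor gene Cd8b1 was 2-fold higher in both diets by its readings. Both its HFD readings lay under the control median, so its HFD difference is between such readings. In NC it was higher by 0.70 or more as a bound. The mean level of these markers was 5.19 on shNrf3-HFD and 5.35 on shCtrl-HFD, and 6.54 on shNrf3-NC and 5.81 on shCtrl-NC. No marker of these 3 lists reached the Mid1 difference in HFD, and Gzmb alone exceeded it in NC. The part of immune cells in the Mid1 difference was not tested.

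Most muscle and fat markers read high on shNrf3-NC. Skeletal muscle markers averaged 5.17 on shNrf3-HFD and 6.18 on shCtrl-HFD, and 9.20 on shNrf3-NC and 5.75 on shCtrl-NC. In NC 11 of 13 were higher, with Acta1 at 12.51 on shNrf3-NC and 5.15 on shCtrl-NC. In HFD 7 were lower and 0 higher (medians -1.07 in HFD and 2.54 in NC). Of those 7, Des had both HFD readings under the control median, and Myh8 is bounded at -0.43 or lower. Myh1, whose value is the HFD median, read under the control median on shNrf3-HFD and just above it on shCtrl-HFD (5.37). Acta1 (-1.09 or lower), Myl1 (-1.07 or lower), Mylpf (-1.74 or lower) and Tnnt3 (-1.75) stayed 2-fold lower. In NC Myh2 and Tnnc2 are bounded at 0.70 and 0.71 or more. Adipocyte markers averaged 7.58 on shNrf3-HFD and 8.80 on shCtrl-HFD, and 9.64 on shNrf3-NC and 7.92 on shCtrl-NC, with medians of -1.33 and 1.37. In HFD 6 of 8 were lower and 0 higher, and in NC 5 were higher and 0 lower, the adipokine gene Retn among both (-1.92 and 5.23). Of the 6, Pparg is bounded at -0.53 or lower. Plin1 was lower in both diets (-1.09 or lower in HFD and -0.38 in NC), and Lep read under the control median on all 4 arrays. The part of muscle and fat in the NC differences was not tested.

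**Figure D5:**
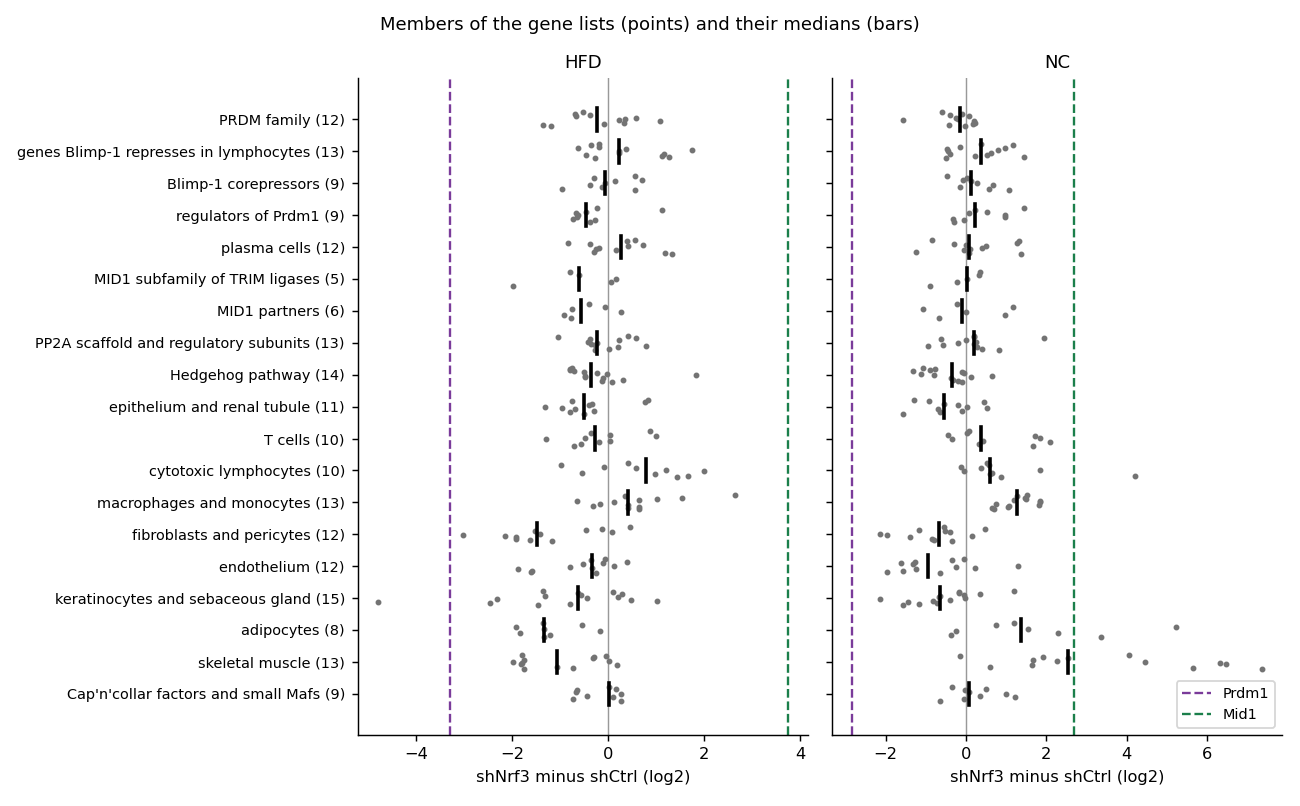
Construct difference (log2, x axis) of each measured member (grey points) of 19 gene lists (rows, number measured without Prdm1 and Mid1 in brackets) in HFD (left) and NC (right), with list medians as black bars. The dashed lines are Prdm1 (-3.29 and -2.83) and Mid1 (3.74 and 2.68). In HFD 1 point, Krt10, lies beyond the Prdm1 line and none beyond the Mid1 line, and in NC the points beyond the Mid1 line are muscle and fat genes and Gzmb.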

How the data were processed

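The authors deposited 1 log2 value per probe set and array. Per the submitters' processing notes these come from RMA in the Affymetrix Expression Console; neither versions nor the genome build are given in sources used here. From these, probe sets were named through the platform annotation (19572 with 1 symbol, all matched by Entrez ID to a RefSeq gene table of GRCm38.p6, used for names and gene order only). A gene with several probe sets took the one with the highest mean. Differences were taken between single arrays, with no test, and genes at 1 or more on the log2 scale were counted. Readings under an array's negative control median were set to it for bounds, written "or more" or "or lower". Scaling alternatives used limma 3.58.1 in R 4.3.3 (cyclic loess, quantile) and Python 3.11.15. The percentile, counting and distance steps were tested on simulated data with a narrower spread of differences than these arrays have, which checks the code alone.

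The 2 genes, the 19 lists (208 of 223 entries measured) and the rules were chosen with earlier results of these data known. Genes named are Prdm1, Mid1, Nfe2l3, the 5 nearest in pattern or mirrored pattern to each (predicted genes not named), chromosome neighbours, and members of the lists, for most lists those 2-fold the same way in both diets or with the largest averaged difference; others stand where a count singled them out. A planned search of promoter and protein sequences was not run, and sequences were not used here.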

Additional observations from a re-analysis of the deposited data

How the results depend on the processing

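With 1 array a group no array can be left out of a difference, and the values describe these arrays alone. The arrays carry no replicate numbers to pair by. Construct differences are taken within each diet, and an additive fit of construct and diet was not run, since both genes were chosen for the same direction in both diets. A difference is said to have moved where it shifted by 1.5-fold or more, a percentile by 5 points and a count by over 1.5 times. Under cyclic loess, quantile normalization, centring of each array and readings set to the control median, no difference of Prdm1 or Mid1 moved. The Prdm1 difference ran from -3.34 to -3.13 in HFD and from -3.05 to -2.73 in NC, and that of Mid1 from 3.69 to 3.91 and from 2.52 to 2.78. The Mid1 difference of differences ran from 0.92 to 1.38 and that of Prdm1 from -0.61 to -0.08. Between diets Mid1 with shCtrl differed by -0.19 to 0.22 and Prdm1 with shNrf3 by -0.01 to 0.09, ranges that hold both signs. Percentiles among genes of similar level were 0 for Prdm1, 100 for Mid1 in HFD and 99.2 to 99.55 in NC, under loess, centring, 250 or 2000 genes, no filter and the stricter one (a mean of 8.45 or more).

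Counts depended on the filter, by construction where fewer or more genes are counted. With the stricter filter 54 genes were 2-fold higher and 42 lower in both diets, 95 higher and 336 lower in HFD, and 836 higher and 175 lower in NC. With no filter 1009 were higher in HFD and 1303 lower in NC. After quantile normalization 466 were lower in HFD and 753 lower in NC, and the cause was not tested. Of the list medians 3 moved, all with only members past the filter counted: keratinocyte markers in HFD (-1.63) and muscle markers in HFD (-1.75) and NC (4.47). Of the 10 nearest in pattern or mirrored pattern, 8 to 10 were shared under each scaling, an alternative chosen after seeing the data. Signal over background limits the low readings of both genes.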
